A study of Homo sapiens with 6 samples.

Results

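The IL6 and IL20 cytokine families were followed in KYSE150 cells through 10 genes, chosen with earlier results of these data known. They are ligands (IL6, IL11, LIF and IL24), receptor chains (IL6ST, OSMR, IL20RA and IL20RB), the transcription factor STAT3 and its feedback gene SOCS3. All 10 were found by symbol among the 67140 gene identifiers of the deposited count table. Of these 10 genes, 9 passed the filter on low counts, as did 19254 genes of the whole table, and IL20RA did not. KYSE150 is an established human esophageal squamous cell carcinoma (ESCC) line, grown here in RPMI medium with fetal bovine serum. RNA-seq compared 3 samples carrying a hairpin against the lncRNA AC007128.1 (shAC007128.1) with 3 samples carrying a control hairpin (shCtrl). The authors made the comparison to study how the lncRNA acts, but its loss was not detected in these counts, as given below. Groups rest on sample titles and descriptions, because the other label fields give the same hairpin text for all 6 samples. There was 1 hairpin of each kind, and nothing in the labels says that samples of a group came from separate cultures, so p-values measure only the spread between these samples, which may be technical. Total counts ranged from 55764405 to 78610457 per sample.

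Cytokines of the IL6 family bind a receptor chain of their own, which then joins IL6ST, the chain that most of the family shares. The joined chains activate JAK kinases, which phosphorylate STAT3, and STAT3 turns on target genes, among them SOCS3, an inhibitor that binds receptor and kinase and ends the signal. IL24 belongs to the IL20 subfamily. The receptors of IL24 pair IL20RB with IL20RA or with IL22RA1, also act through STAT3 and are known mainly from epithelial cells.

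The targeted gene was identified first. The sense stem of the hairpin, shown because it ties the hairpin to a gene of the count table, matched the transcripts of 1 annotated gene exactly, ENSG00000229970. The match lies at chr7:8343202-8343220 on the plus strand of hg38, in exon 6 of the 7 exons of a matching transcript of this lncRNA. The matched bases are in capitals.
shAC007128.1 sense stem: CCACAAGTCCTGGCACATT

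Raw counts of AC007128.1 were 69, 33 and 53 with shCtrl and 18, 37 and 15 with shAC007128.1, in the order of replicates 1 to 3. The groups overlapped, because shAC007128.1 replicate 2 lay above shCtrl replicate 2. The log2 fold change of shAC007128.1 over shCtrl was -0.77 with a standard error (SE) of 0.51 (edgeR adjusted p = 0.271), so a lower level of the target was not detected. Over the alternatives it ran from -1.29 (without shAC007128.1 replicate 2) to -0.51 (without shCtrl replicate 1), and the adjusted p from 0.0959 to 0.562. The authors reported by qPCR that the hairpin lowered the lncRNA, and that measurement was not used here. Of its 1853 exon bases, 384 (20.7%) are shared with ENSG00000272328 and 398 (21.5%) with ICA1-AS1, both on the same strand. With ICA1, on the opposite strand, 118 (6.37%) are shared. Strand use in the counting is not given in the sources used here, and it would not separate genes that share exons on the same strand. The level of AC007128.1 is therefore uncertain, as are those of the overlapping genes named further on.

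The ligand IL6, the ligand IL24 and the receptor chain IL20RB were each several-fold lower with shAC007128.1, whereas SOCS3 was higher. Calls were made from edgeR's quasi-likelihood test, with p adjusted by the method of Benjamini and Hochberg over all 19254 genes, and needed an adjusted p of at most 0.05 together with a fold change of at least 2. By this rule 3 of the 9 genes tested were called lower (IL6, IL24 and IL20RB) and 1 was called higher (SOCS3), while 10.1% of all genes tested were called lower and 5.57% higher. At an adjusted p of at most 0.05 and any fold change, IL11 joined the lower genes and STAT3 the higher ones, giving 4 and 2 of 9, against 19.8% and 21% of all genes tested. For 5 of the 9 the groups were separate with shAC007128.1 lower, and for 2 they were separate with shAC007128.1 higher, against 28.2% and 27% of all genes tested. The median log2 fold change of the 9 was -0.33, and that of all genes tested was -0.02. Because the 10 genes were chosen with earlier results known, their shares are not an independent comparison with all genes. In bulk RNA, fewer cells of a type and less RNA per cell cannot be told apart.

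**Figure D1:**
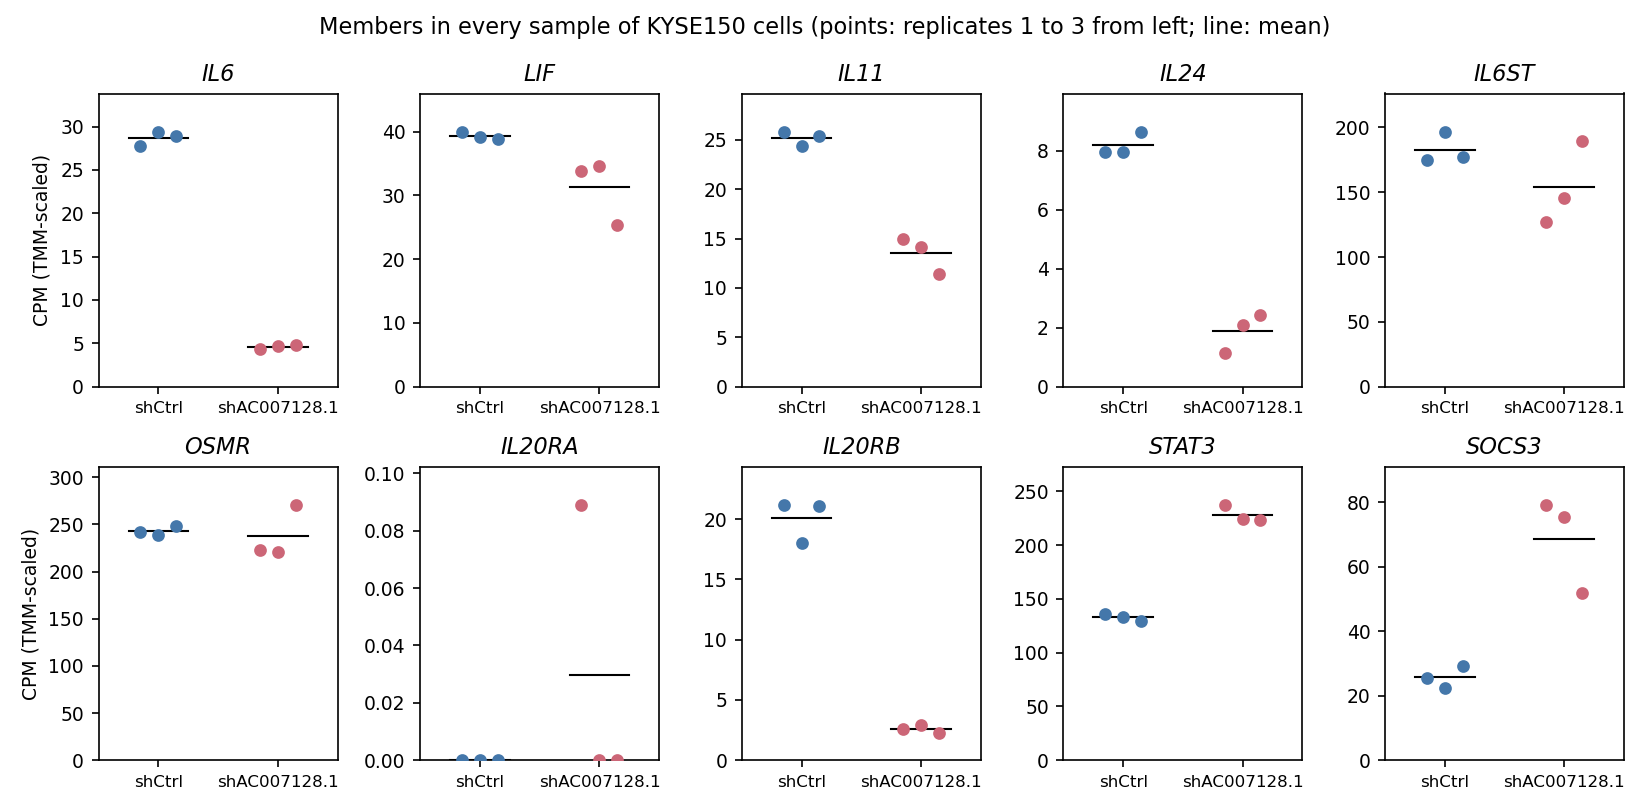
Level (CPM, counts scaled by library size and TMM factor, vertical axes from 0) of the 10 genes in the 3 shCtrl samples (blue) and the 3 shAC007128.1 samples (red), with points for replicates 1 to 3 from the left and lines for group means. The groups are well apart for IL6, IL24, IL20RB, STAT3 and SOCS3, and they overlap for IL6ST and OSMR.

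IL6, a cytokine that drives the acute-phase response and lymphocyte growth, lies at chr7:22725884-22732002 on the plus strand (ENSG00000136244, GENCODE v44 on hg38). In shCtrl replicates 1, 2 and 3 its level was 27.8, 29.4 and 28.9 CPM, the unit for counts scaled by library size and TMM factor. In the shAC007128.1 replicates it was 4.37, 4.64 and 4.85 CPM. All 3 shAC007128.1 samples lay far below all 3 shCtrl samples, and samples of a group lay close together. The mean fell from 28.7 ± 0.821 CPM to 4.62 ± 0.238 CPM (SD, n = 3 each), which is 16.1% of control. The log2 fold change was -2.64 (SE 0.11, edgeR adjusted p = 1.6e-05). The antisense gene IL6-AS1 shares 428 of the exon bases of IL6 (9.91%) and averaged 0.883 CPM in shCtrl cells and 0.821 CPM in shAC007128.1 cells, with overlapping groups. STEAP1B, on the opposite strand too, shares 46 bases and had 69, 114 and 39 counts with shCtrl and 20, 0 and 8 with shAC007128.1. Its groups did not overlap, and its log2 fold change of -2.56 (SE 0.93), close to that of IL6, did not pass the test (edgeR adjusted p = 0.0627).

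Promoter sequences were taken from RefSeq (GRCh38.p14), which held an entry for 9 of the 10 genes, 11 entries in all, and no entry for LIF was used. They are shown for the members called lower and for IL11, since these genes moved together. Motifs were searched on both strands of the 250 bases before each start: TTCNNNGAA for STAT factors, TTGCNNAA for C/EBP factors, TGANTCA for AP-1 and the NF-kappaB consensus by name. Over the 35116 promoters of the table, the shares with at least 1 match were 6.57%, 9.05%, 6.57% and 9.96% in that order. Among the other members, IL6ST had an NF-kappaB match and OSMR a C/EBP match, which begin 53 and 73 bases before the start, and neither gene passed the test. Each match is only a match of letters, and none of those marked overlaps another. The IL6 window, chr7:22726950-22727146 on the plus strand, holds 197 bases that end before an annotated UTR and lies within longer annotated transcripts of IL6, IL6-AS1 and STEAP1B. In capitals it shows a C/EBP match that begins 155 bases before the start and an NF-kappaB match that begins 73 bases before it.
IL6: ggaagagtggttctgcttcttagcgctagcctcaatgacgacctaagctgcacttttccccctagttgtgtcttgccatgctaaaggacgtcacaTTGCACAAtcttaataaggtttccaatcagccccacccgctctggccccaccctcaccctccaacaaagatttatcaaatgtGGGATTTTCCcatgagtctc

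IL11, a family member that also signals through IL6ST, lies at chr19:55364382-55370463 on the minus strand (ENSG00000095752). Its level was 25.8, 24.4 and 25.4 CPM in the shCtrl samples and 15, 14.1 and 11.4 CPM in the shAC007128.1 samples. The groups did not overlap, and the shAC007128.1 sample nearest to the controls was replicate 1. IL11 fell from 25.2 ± 0.714 to 13.5 ± 1.85 CPM (SD, n = 3 each), to 53.6% of control, with a log2 fold change of -0.90 (SE 0.13, edgeR adjusted p = 0.00133). This is short of the fold change of 2 that a call required. The promoter of IL11, chr19:55370464-55370713 on the minus strand, overlaps no annotated gene and has 1 AP-1 match, in capitals, that begins 96 bases before the start.
IL11: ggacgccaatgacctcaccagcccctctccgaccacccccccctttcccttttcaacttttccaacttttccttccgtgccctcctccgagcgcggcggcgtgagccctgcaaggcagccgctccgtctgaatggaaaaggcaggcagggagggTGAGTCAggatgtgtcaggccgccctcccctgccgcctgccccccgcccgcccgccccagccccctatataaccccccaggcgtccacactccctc

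LIF, a further ligand that uses IL6ST together with LIFR, was at 40, 39.1 and 38.8 CPM with shCtrl and 33.8, 34.6 and 25.3 CPM with shAC007128.1. Every shAC007128.1 sample was below every shCtrl sample, with replicate 3 lower than the others. The log2 fold change of -0.33 (SE 0.13) did not pass the test (edgeR adjusted p = 0.0804). Without shAC007128.1 replicate 3 it was -0.21 with an adjusted p of 0.0391. With library size as the only scaling it was -0.40 with an adjusted p of 0.0474. LIF thus passed the test under single choices, but its fold change stayed short of a call. Over all 15 alternatives the adjusted p ran from 0.0391 to 0.182.

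IL24, the IL20 subfamily ligand with a measurable level here, lies at chr1:206897443-206904139 on the plus strand (ENSG00000162892). Its level was 7.96, 7.96 and 8.65 CPM in the shCtrl samples and 1.16, 2.09 and 2.44 CPM in the shAC007128.1 samples. The groups were clearly apart, although the shAC007128.1 samples varied among themselves more than those of IL6, relative to their mean. IL24 fell to 23.2% of control, with a log2 fold change of -2.11 (SE 0.28, edgeR adjusted p = 0.000986). It shares 823 of its 1979 exon bases (41.6%) with FCMR on the opposite strand. FCMR, an Fc receptor for immunoglobulin M, averaged 4.26 CPM in shCtrl cells and 3.08 CPM in shAC007128.1 cells, a log2 fold change of -0.47 that did not pass the test (edgeR adjusted p = 0.0642). The promoter of IL24, chr1:206897193-206897442 on the plus strand, overlaps no annotated gene and holds no match to the 4 motifs, so it has no capitals.
IL24: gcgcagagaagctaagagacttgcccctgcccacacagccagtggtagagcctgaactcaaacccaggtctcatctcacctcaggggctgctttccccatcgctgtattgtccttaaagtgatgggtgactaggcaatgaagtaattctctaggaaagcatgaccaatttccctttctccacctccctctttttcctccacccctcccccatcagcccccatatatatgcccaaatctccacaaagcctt

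The other ligands of both families were mostly at or near 0. Of the 10 IL6 family ligands listed 7 were tested, of which 4 fell (57.1%, against 19.8% of all genes tested), 0 rose (against 21%) and 3 did not pass the test, with a median log2 fold change of -0.66. Without IL6, IL11 and LIF, 4 were tested, of which 2 fell and 2 did not pass the test, with a median of -0.38. All pathway and marker lists were also chosen with earlier results known, so the shares given for them are not independent comparisons. EBI3, a subunit shared by heterodimeric cytokines such as IL27, was at 2.24, 2.46 and 1.74 CPM with shCtrl and 0.818, 0.855 and 0.499 CPM with shAC007128.1. Its groups did not overlap, and it was called lower with a log2 fold change of -1.57 (SE 0.29, edgeR adjusted p = 0.0046). CTF1, which encodes cardiotrophin, fell less, with a log2 fold change of -0.66 (SE 0.18, edgeR adjusted p = 0.024, alternatives 0.0155 to 0.0913). That fall was not past the test without shCtrl replicate 1 (adjusted p = 0.0913), without shCtrl replicate 2 (0.0523), without shAC007128.1 replicate 1 (0.063) or with a replicate block (0.0656). IL27 and IL31 had 0 counts in every sample, and OSM had at most 9. Among the 6 IL10 and IL20 family ligands IL24 was the 1 gene tested, and IL10 and IL26 had 0 counts in every sample. IL19, IL20 and IL22 reached at most 9, 13 and 8 counts in a shCtrl sample and 0 in every shAC007128.1 sample. If each count is 1 read, a count of 0 allows up to 3 counts, which correspond to 0.0516 to 0.0546 CPM in the shAC007128.1 samples.

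IL20RB, the receptor chain common to both receptors of IL24, had the largest fold change of the 9 genes tested. It lies at chr3:136946230-137011085 on the plus strand (ENSG00000174564). In the shCtrl samples it was at 21.2, 18 and 21.1 CPM, and in the shAC007128.1 samples at 2.61, 2.93 and 2.27 CPM. No shAC007128.1 sample came near the control range. The mean fell from 20.1 ± 1.79 to 2.6 ± 0.33 CPM (SD, n = 3 each), 13% of control, with a log2 fold change of -2.95 (SE 0.15, edgeR adjusted p = 3.09e-05). Overlaps with other exons were small, 66 bases with NCK1 (2.7%) and 37 bases with IL20RB-AS1 (1.51%). NCK1 rose slightly, with a log2 fold change of 0.57 (SE 0.13, edgeR adjusted p = 0.0115). The antisense gene IL20RB-AS1 had 13, 18 and 7 counts in the shCtrl samples and 0 in all 3 shAC007128.1 samples. The promoter of IL20RB, chr3:136957733-136957982 on the plus strand, lies within the annotated gene, with 88 of its bases in an exon of a longer transcript, and holds no match to the 4 motifs.
IL20RB: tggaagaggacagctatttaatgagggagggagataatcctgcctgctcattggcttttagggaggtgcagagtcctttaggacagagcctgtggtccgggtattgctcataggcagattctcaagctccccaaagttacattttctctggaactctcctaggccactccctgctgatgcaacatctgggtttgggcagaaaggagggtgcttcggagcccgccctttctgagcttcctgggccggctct

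IL20RA, which pairs with IL20RB in a receptor for IL24, lies at chr6:136999971-137045180 on the minus strand (ENSG00000016402). It had 0 counts in all 3 shCtrl samples and in shAC007128.1 replicates 2 and 3, and 5 counts in shAC007128.1 replicate 1. If each count is 1 read, a count of 0 allows up to 3 counts, 0.0373 to 0.0546 CPM over the 6 samples, and no fold change was taken. IL22RA1, the alternative partner of IL20RB, was measurable in both groups. It was at 1.28, 1.44 and 1.46 CPM with shCtrl and at 3.7, 5.09 and 2.89 CPM with shAC007128.1. The groups did not overlap, and IL22RA1 was called higher with a log2 fold change of 1.48 (SE 0.25, edgeR adjusted p = 0.00303). The partner chains of the IL24 receptor thus differed in direction between the groups, IL20RB lower and IL22RA1 higher. IL10RB, a chain shared by IL10, IL22 and interferon lambda receptors and named after its values were seen, reached 40.2 CPM in shAC007128.1 replicate 3 and lay between 15.3 and 20.5 CPM in the other 5 samples. Its log2 fold change of 0.39 did not pass the test (edgeR adjusted p = 0.407) and was -0.16 without that sample (adjusted p = 0.458, alternatives 0.165 to 0.64). Of the 6 receptors of these families 3 were tested, with 1 lower and 1 higher (33.3% each, against 19.8% and 21% of all genes tested) and 1 not past the test. Their median log2 fold change of 0.39 is the value of IL10RB, whose sign rests on shAC007128.1 replicate 3. IL10RA and IL22RA2 had 0 counts in every sample.

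IL6ST, the shared signal-transducing chain, did not pass the test. The gene lies at chr5:55935095-55995022 on the minus strand (ENSG00000134352). Its level was 175, 197 and 177 CPM in the shCtrl samples and 127, 145 and 189 CPM in the shAC007128.1 samples. Replicates 1 and 2 of shAC007128.1 lay below all controls, whereas replicate 3 lay within the control range. The log2 fold change was -0.25 (SE 0.14, edgeR adjusted p = 0.213). Without shAC007128.1 replicate 3 it was -0.43 with an adjusted p of 0.00827, and over the 15 alternatives the adjusted p ran from 0.00827 to 0.498.

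OSMR, which joins IL6ST to receive oncostatin M, did not pass the test either. It lies at chr5:38845858-38945596 on the plus strand (ENSG00000145623). Its level was 242, 239 and 249 CPM with shCtrl and 223, 221 and 270 CPM with shAC007128.1. Replicates 1 and 2 of shAC007128.1 were below all controls and replicate 3 was above them. The log2 fold change was -0.03 (SE 0.09, edgeR adjusted p = 0.81), and it was -0.14 with an adjusted p of 0.0337 without shAC007128.1 replicate 3. Without shAC007128.1 replicate 1 or replicate 2 it was 0.01 or 0.02, and over the 15 alternatives the adjusted p ran from 0.0337 to 0.936. OSMR shares 229 exon bases (3.19%) with RICTOR on the opposite strand. Unlike OSMR, RICTOR rose without overlap of the groups, with a log2 fold change of 0.51 (SE 0.16, edgeR adjusted p = 0.0352).

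IL6R and LIFR, chains that join IL6ST, were higher with shAC007128.1. Of the 9 IL6 family receptors listed 8 were tested, of which 2 rose (25%, against 21% of all genes tested), 1 fell (12.5%, against 19.8%) and 5 did not pass the test, with a median log2 fold change of -0.03. Without IL6ST and OSMR, 6 were tested and the median was 0.03. LIFR, a chain shared by LIF and other ligands such as oncostatin M, CNTF and cardiotrophin, was at 17.3, 19.1 and 17.4 CPM with shCtrl and at 63.3, 72.4 and 92.4 CPM with shAC007128.1. Every shAC007128.1 sample was more than 3 times any control sample. LIFR was called higher with a log2 fold change of 2.08 (SE 0.15, edgeR adjusted p = 8.28e-05). It lies on chromosome 5 at 38474668 to 38608354, on the same chromosome arm as OSMR, whose groups overlapped. IL6R, the specific chain for IL6, was at 12.8, 14.5 and 14.4 CPM with shCtrl and at 38.1, 34.8 and 32.4 CPM with shAC007128.1. The groups did not overlap, and IL6R was called higher with a log2 fold change of 1.34 (SE 0.11, edgeR adjusted p = 0.00013). IL11RA, the specific chain for IL11, fell with a log2 fold change of -0.79 (SE 0.22, edgeR adjusted p = 0.0253), over a range of adjusted p from 0.00662 to 0.0898 among the alternatives. It was not past the test without shCtrl replicate 2 (adjusted p = 0.0898), without shCtrl replicate 3 (0.0782), without shAC007128.1 replicate 2 (0.0799) or with a replicate block (0.063). It shares 32.5% of its exon bases with ENSG00000258728 on the same strand.

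**Figure D2:**
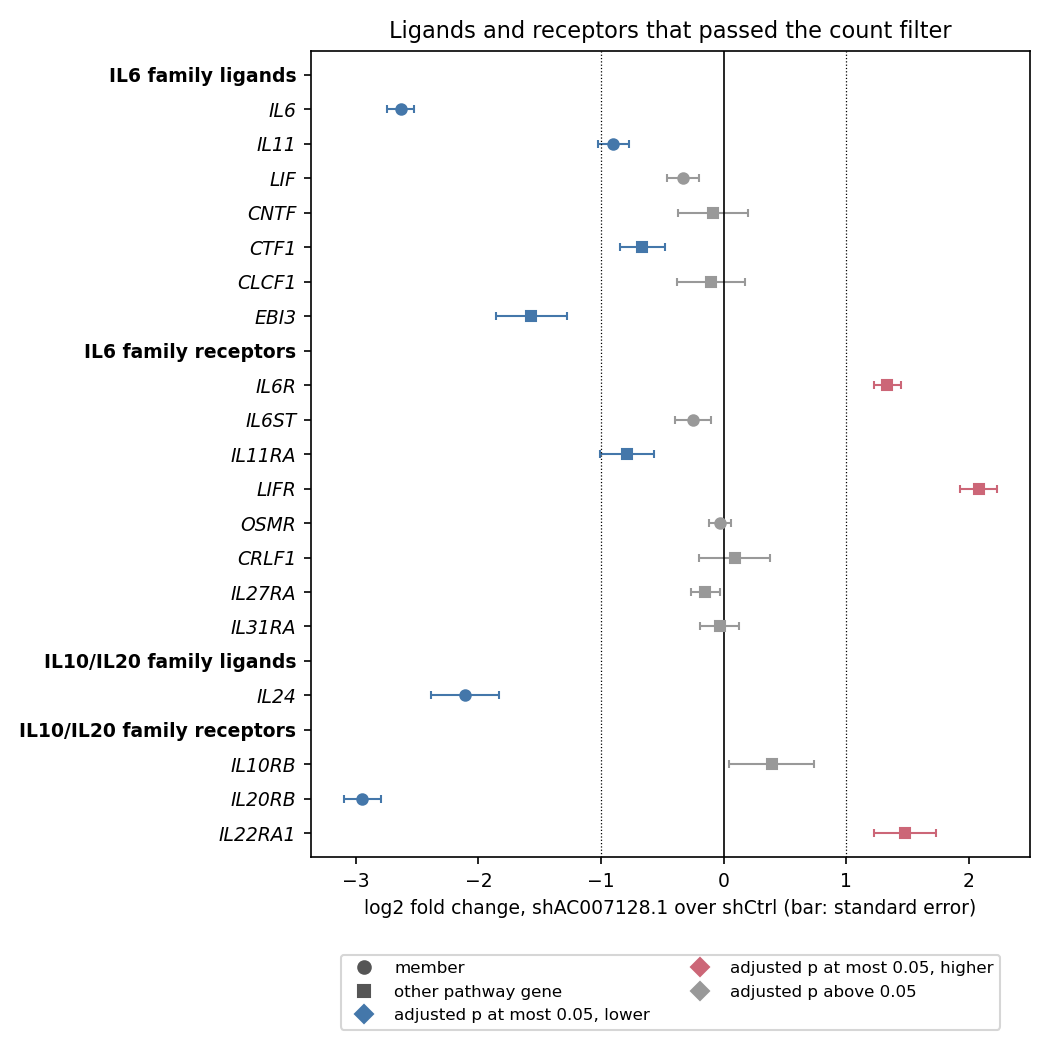
Log2 fold change of shAC007128.1 over shCtrl (horizontal axis, points, with bars for the standard error, n = 3 samples a group) for the ligands and receptors that passed the filter, with dotted lines at -1 and 1. IL6, IL24, IL20RB and EBI3 lie left of -1, and IL6R, LIFR and IL22RA1 lie right of 1.

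Levels of different genes were compared per kilobase of merged exon (RPKM, from the TMM-scaled CPM). The order of genes depends on this length, which merges the exons of all annotated transcripts of a gene. In shCtrl cells IL6 (4321 exon bases) was above IL11 (2678 exon bases) in CPM, at 28.7 against 25.2, but below it per kilobase. In shCtrl cells the order of the 4 ligand genes was LIF (10.1 ± 0.159), IL11 (9.41 ± 0.267), IL6 (6.65 ± 0.19) and IL24 (4.14 ± 0.199 RPKM, SD, n = 3 each), with no overlap of samples between neighbours. In shAC007128.1 cells it was LIF (8.07 ± 1.33), IL11 (5.04 ± 0.691), IL6 (1.07 ± 0.0551) and IL24 (0.958 ± 0.336 RPKM, SD, n = 3 each), and the samples of IL6 and IL24 overlapped. Of the other listed ligands, CLCF1 averaged 3.43 RPKM in shCtrl and 3.2 RPKM in shAC007128.1 cells, and CTF1 2.85 and 1.8 RPKM. Per kilobase, LIF and IL11 had the highest mean levels of the listed ligands in both groups. By the same measure, IL6 moved down to the level of IL24, below CLCF1 and CTF1, whereas in CPM it stayed above CTF1 (4.62 against 2.95 in shAC007128.1 cells). Among receptors OSMR had the highest level in both groups, 33.9 ± 0.682 RPKM in shCtrl and 33.2 ± 3.9 RPKM in shAC007128.1 cells, followed by IL6ST with 15.2 ± 0.992 and 12.8 ± 2.65 RPKM (SD, n = 3 each). IL20RB came next in shCtrl cells, at 8.22 ± 0.732 RPKM, above IL6R at 1.99 ± 0.139 and LIFR at 1.48 ± 0.0835 RPKM. In shAC007128.1 cells the order of these genes was LIFR (6.25 ± 1.22), IL6R (5.02 ± 0.405) and IL20RB (1.07 ± 0.135 RPKM, SD, n = 3 each), and the samples of LIFR and IL6R overlapped.

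**Figure D3:**
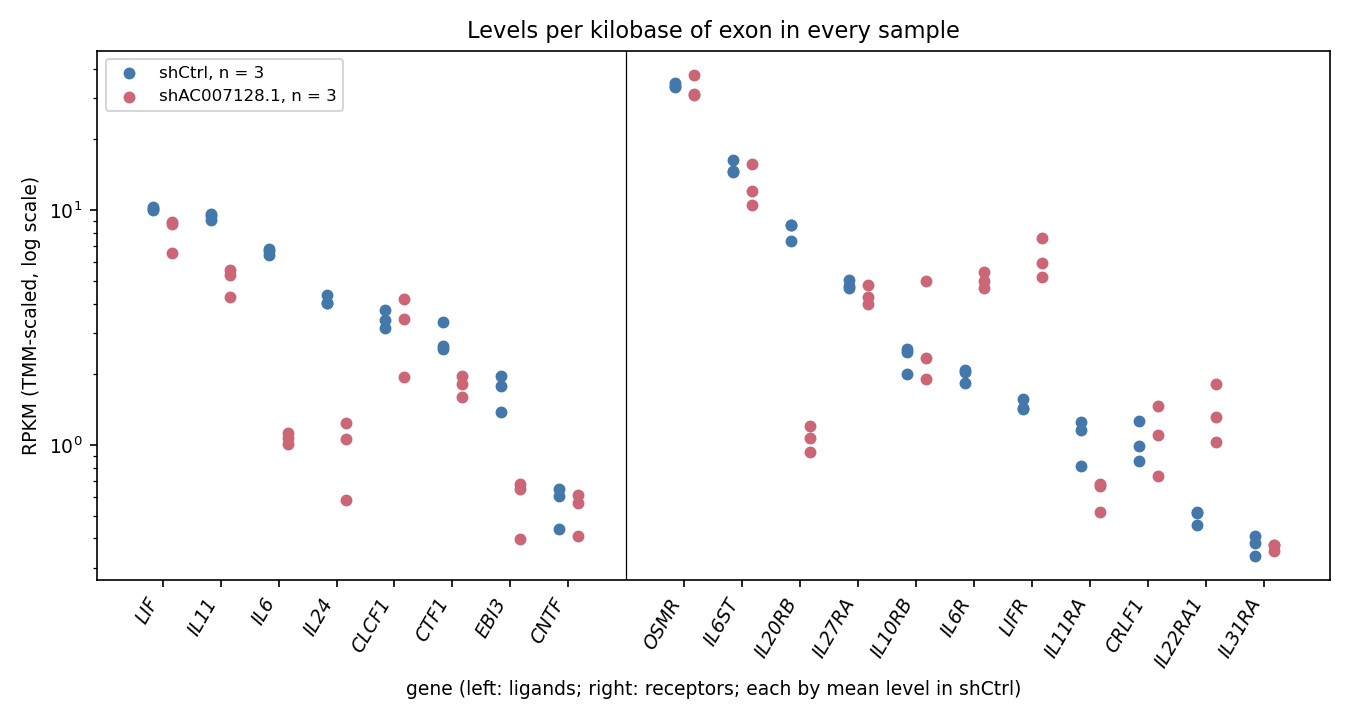
Level per kilobase of exon (RPKM, log axis) of each tested ligand (left) and receptor (right) in the shCtrl samples (blue, n = 3) and shAC007128.1 samples (red, n = 3), ordered by the shCtrl mean. IL6, IL24 and IL20RB drop to about 1 RPKM in the red samples, while LIFR and IL6R rise to between 4.64 and 7.6 RPKM.

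STAT3, the transcription factor on which these receptors converge, lies at chr17:42313324-42388540 on the minus strand (ENSG00000168610). Its level was 136, 134 and 130 CPM in the shCtrl samples and 237, 224 and 223 CPM in the shAC007128.1 samples. The groups were wide apart and tight. STAT3 rose from 133 ± 3.1 to 228 ± 7.78 CPM (SD, n = 3 each), 171% of control, with a log2 fold change of 0.78 (SE 0.06, edgeR adjusted p = 0.000137), short of the fold change of 2 required for a call. These are transcript levels, and phosphorylation of STAT3 is not measured by them.

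Of the 11 JAK kinases and STAT factors listed, all 11 were tested, with 5 higher (45.5%, against 21% of all genes tested), 2 lower (18.2%, against 19.8%) and 4 not past the test, and a median log2 fold change of 0.28 (0.20 without STAT3). The 2 lower genes were JAK3 and STAT4. JAK3, a kinase known mainly from lymphoid cytokine receptors, was at 7.5, 6.5 and 6.61 CPM with shCtrl and at 2.97, 2.35 and 1.93 CPM with shAC007128.1, without overlap. It was called lower with a log2 fold change of -1.51 (SE 0.20, edgeR adjusted p = 0.00108). STAT4, named after its values were seen, had only 9 to 36 counts per sample, and its call (log2 fold change -1.34, edgeR adjusted p = 0.042) was lost without any 1 of the 6 samples, where the adjusted p reached 0.156. It was also lost with DESeq2 (adjusted p = 0.139), limma-voom (0.0575), no filter (0.075) and a replicate block (0.129), with a range of 0.0342 to 0.156 over all its alternatives. JAK2, a kinase bound to IL6ST, was at 10.7, 11 and 12.7 CPM with shCtrl and at 17.7, 17.1 and 21.1 CPM with shAC007128.1. It rose with a log2 fold change of 0.70 (SE 0.13, edgeR adjusted p = 0.00506), and its groups did not overlap. STAT5B rose less, with a log2 fold change of 0.31 (SE 0.08, edgeR adjusted p = 0.016), which was not past the test without shCtrl replicate 1, 2 or 3 (adjusted p = 0.0657, 0.0686 and 0.0569), with no filter (0.0527) or with a replicate block (0.0524), and ranged in adjusted p from 0.00445 to 0.0686. JAK1, the most abundant gene of this list in shCtrl cells, had a log2 fold change of -0.14 with overlapping groups.

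SOCS3, the feedback inhibitor induced by STAT3, lies at chr17:78356778-78360077 on the minus strand (ENSG00000184557). Its level was 25.6, 22.3 and 29.3 CPM in the shCtrl samples and 79.1, 75.3 and 51.9 CPM in the shAC007128.1 samples. The groups did not overlap, and shAC007128.1 replicate 3 was the closest to the controls. SOCS3 rose from 25.7 ± 3.5 to 68.8 ± 14.8 CPM (SD, n = 3 each), 268% of control, and was called higher with a log2 fold change of 1.42 (SE 0.18, edgeR adjusted p = 0.000873). Per kilobase it went from 9.4 ± 1.28 RPKM, a level shared with IL11, to 25.2 ± 5.4 RPKM. Both promoter entries of SOCS3 and the entry of STAT3 held no match to the STAT motif in the 250 bases searched, which says only that these letters are not there.

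Of the SOCS, PIAS and phosphatase genes that restrain JAK and STAT signaling, 16 were listed and tested. Of these, 5 were higher (31.2%, against 21% of all genes tested), 3 lower (18.8%, against 19.8%) and 8 not past the test, and the median log2 fold change was 0.07 (0.01 without SOCS3). CISH, another inducible member of the SOCS family, was at 4.56, 6.61 and 4.11 CPM with shCtrl and at 11.4, 14.4 and 14.1 CPM with shAC007128.1. The groups did not overlap, and CISH was called higher with a log2 fold change of 1.38 (SE 0.21, edgeR adjusted p = 0.002). SOCS5 rose with a log2 fold change of 0.59 (SE 0.11, edgeR adjusted p = 0.00464). PIAS2, a SUMO ligase that binds STAT proteins, rose with a log2 fold change of 0.75 (SE 0.16, edgeR adjusted p = 0.00887), with its highest level of 40.7 CPM in shAC007128.1 replicate 3. The 3 lower genes were SOCS2, SOCS6 and PTPN1, named after their values were seen, with log2 fold changes of -0.51, -0.32 and -0.22.

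STAT3 target genes also went both ways. Of 25 listed 22 were tested, of which 6 fell and 6 rose (27.3% each, against 19.8% and 21% of all genes tested) and 10 did not pass the test, with a median log2 fold change of 0.09. The 6 that fell were all called (27.3% of 22, against 10.1% of all genes tested), and of the 6 that rose 1 was called (4.55%, against 5.57%). LCN2, an iron-binding protein of the innate immune response, was at 49.5, 51.5 and 48.1 CPM with shCtrl and at 5.8, 5.4 and 5.79 CPM with shAC007128.1. The groups were far apart, and LCN2 fell with a log2 fold change of -3.13 (SE 0.09, edgeR adjusted p = 1.02e-05). FOS, a subunit of the AP-1 factor, was at 184, 200 and 184 CPM with shCtrl and at 40.8, 46.8 and 44.8 CPM with shAC007128.1, without overlap. Its log2 fold change was -2.10 (SE 0.08, edgeR adjusted p = 1.6e-05). CEBPB, a factor of the C/EBP family whose motif was searched above, was at 376, 382 and 367 CPM with shCtrl and at 96.4, 87.6 and 73 CPM with shAC007128.1. It fell with a log2 fold change of -2.13 (SE 0.11, edgeR adjusted p = 2.96e-05), and its groups did not overlap.

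Further target genes were named after their values were seen. The acute-phase genes SAA1 and SAA2 fell with log2 fold changes of -1.70 and -1.44, and these near-identical paralogs may share reads. VEGFA, the vascular growth factor, fell with a log2 fold change of -1.36 (SE 0.13, edgeR adjusted p = 0.000222). BIRC5, which encodes the apoptosis inhibitor survivin, rose with a log2 fold change of 1.16 (SE 0.15, edgeR adjusted p = 0.00103). CEBPD, of the same family as CEBPB, rose too, with a log2 fold change of 0.55 (SE 0.13, edgeR adjusted p = 0.0113). The others that rose were BCL3, BCL6, PIM1 and TIMP1, with log2 fold changes of 0.60, 0.97, 0.64 and 0.23, short of a call.

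**Figure D4:**
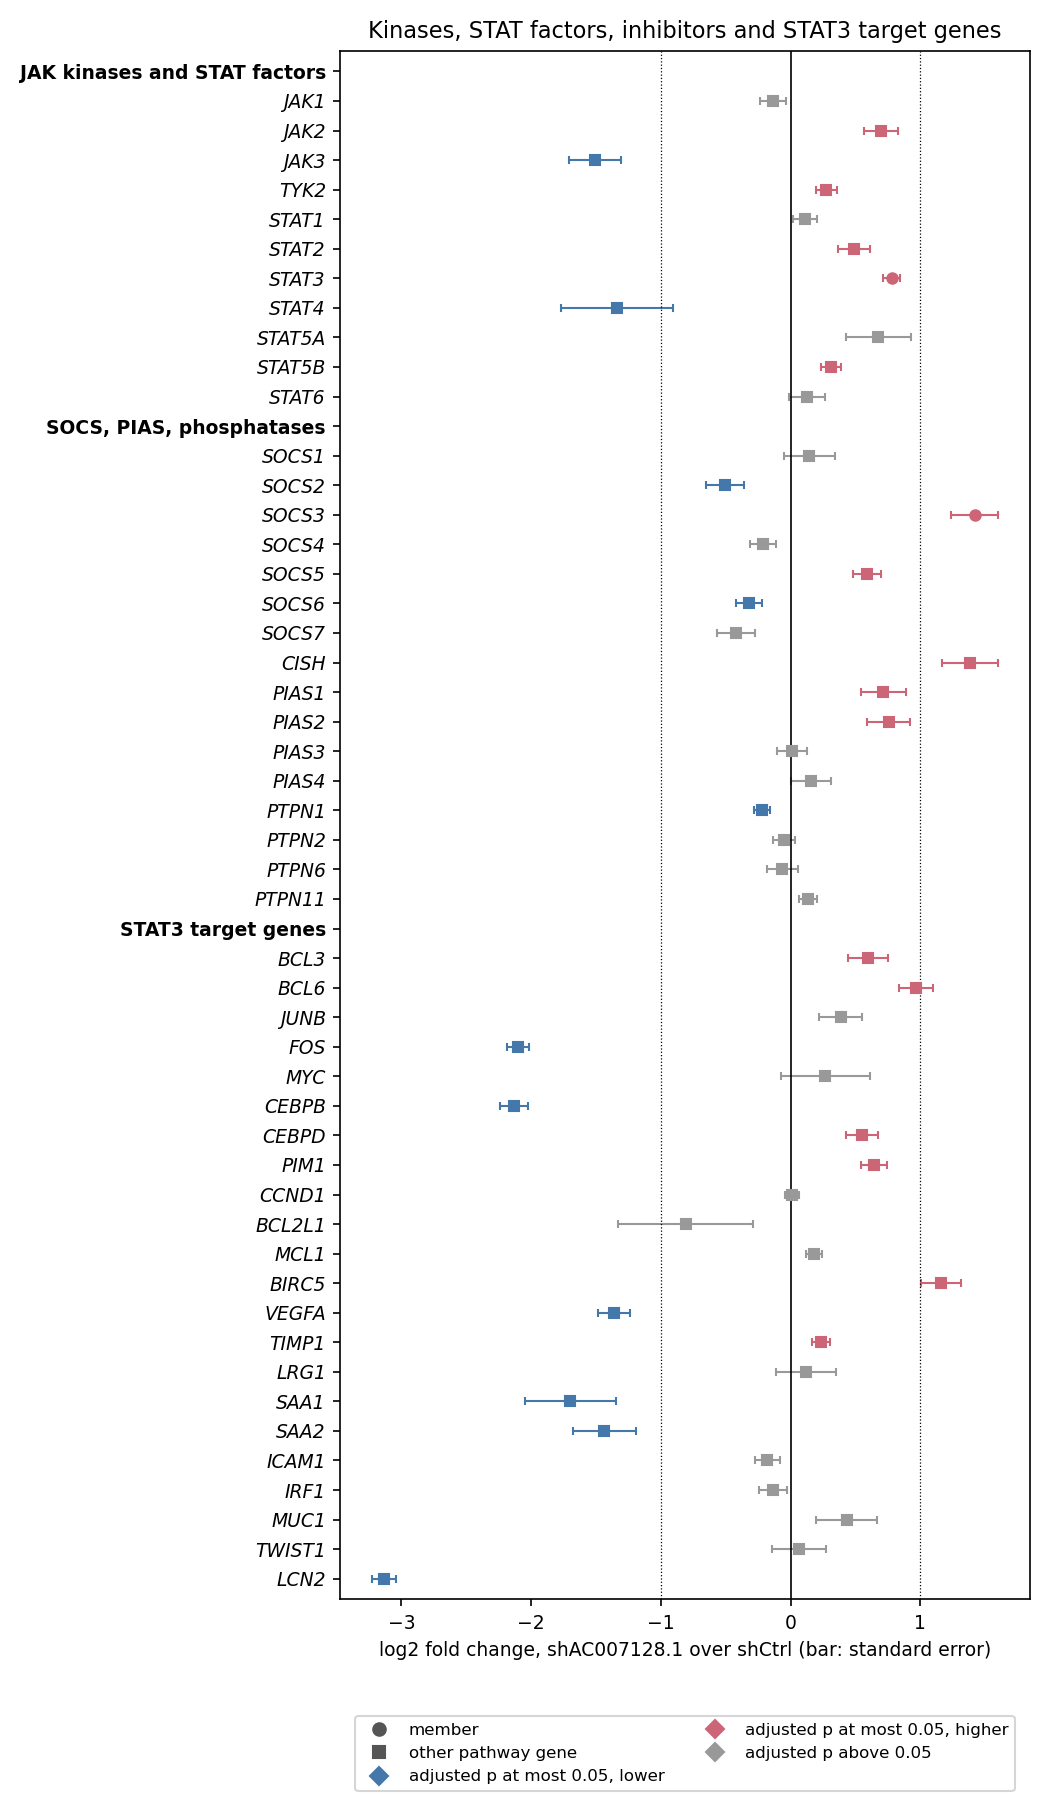
Log2 fold change of shAC007128.1 over shCtrl (horizontal axis, points, with bars for the standard error, n = 3 samples a group) for the tested kinases, STAT factors, inhibitors and STAT3 target genes, with dotted lines at -1 and 1. STAT3 and SOCS3 (circles) lie at 0.78 and 1.42, and LCN2, FOS and CEBPB lie furthest to the left.

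Over all 7 pathway lists without the 10 genes themselves, 59 of 73 genes were tested. Of these, 9 were called lower (15.3%, against 10.1% of all genes tested) and 5 higher (8.47%, against 5.57%). At any fold change 14 fell (23.7%, against 19.8%) and 17 rose (28.8%, against 21%), and 28 did not pass the test. Their groups were separate with shAC007128.1 lower for 16 (27.1%, against 28.2%) and higher for 20 genes (33.9%, against 27%), and their median log2 fold change was 0.09. The called genes were EBI3, JAK3, STAT4, LCN2, FOS, CEBPB, VEGFA, SAA1 and SAA2 on the lower side, and LIFR, IL6R, IL22RA1, CISH and BIRC5 on the higher side.

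The genes most like IL6 across the 6 samples were NOXA1, an activator of an epithelial NADPH oxidase, SSH1, a phosphatase of cofilin, and IL1B, a proinflammatory cytokine. Their log2 CPM had a Pearson's r with that of IL6 of 0.9998, 0.9997 and 0.9997. The 6 samples form 2 groups, so these values largely restate the difference between groups, and 336 of the 12631 genes compared (2.66%) had an r of at least 0.99. IL1B was at 210, 209 and 206 CPM with shCtrl and at 32.4, 33.6 and 36.1 CPM with shAC007128.1, a log2 fold change of -2.62 (SE 0.07, edgeR adjusted p = 8.39e-06). NOXA1 had a log2 fold change of -3.89 (SE 0.15, edgeR adjusted p = 1.6e-05). SSH1 moved far less, with a log2 fold change of -0.65 (SE 0.06, edgeR adjusted p = 0.000194).

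The line was checked against marker genes. All 10 squamous epithelial markers were tested, of which 6 rose (60%, against 21% of all genes tested), 1 fell (10%, against 19.8%) and 3 did not pass the test, with a median log2 fold change of 0.77. Their summed level was 1737, 1726 and 1738 CPM in the shCtrl samples and 3344, 3059 and 2677 CPM in the shAC007128.1 samples, and KRT5 was the most abundant. KRT5, KRT14 and TP63, which define squamous cells, were detected in every sample, and SOX2 was at 0.328 to 0.589 CPM with shCtrl and 3.89 to 5.17 CPM with shAC007128.1. Of 8 fibroblast markers 3 were tested, 2 higher (66.7%, against 21%) and 1 lower (33.3%, against 19.8%) with a median log2 fold change of 0.33. Their summed level, most of it COL1A1, was between 15.3 and 16.2 CPM with shCtrl and between 21.3 and 23.9 CPM with shAC007128.1. LUM was called higher, with 88, 112 and 41 counts with shCtrl and 220, 270 and 308 with shAC007128.1 and a log2 fold change of 2.14 (SE 0.33, edgeR adjusted p = 0.00193). PDGFRB was called lower (log2 fold change -1.60, edgeR adjusted p = 0.0474). It had only 31, 51 and 24 counts with shCtrl and 5, 13 and 8 with shAC007128.1, and its call was not followed through the alternatives. COL1A2, COL3A1 and PDGFRA had 0 counts in every shAC007128.1 sample and at most 16 in a shCtrl sample.

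Of 8 leukocyte markers 4 were tested, 1 lower (25%, against 19.8% of all genes tested) and 3 not past the test, with a median log2 fold change of -1.26. Their summed level, nearly all of it CD68, was between 60 and 68.7 CPM with shCtrl and between 14.9 and 24.1 CPM with shAC007128.1. CD68 shares 81.6% of its exon bases with another annotated gene on the same strand, while the defining leukocyte marker PTPRC had at most 9 counts in a sample and MS4A1 had 0 in all. Of 6 endothelial markers 2 were tested and neither passed the test. Their median log2 fold change of 0.03 lies between opposite values, 1.49 for PECAM1 and -1.43 for VWF, the most abundant in shCtrl cells. The summed level of the list was between 2.34 and 3.23 CPM with shCtrl and between 0.587 and 2.02 CPM with shAC007128.1. KDR had 5 counts in 1 sample and 0 in the others. Several squamous markers thus differed between the groups, mostly higher while IL6, IL24 and IL20RB were lower, and their part in the result was not tested.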

How the data were processed

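The authors mapped reads of poly-A libraries to hg38 with TopHat (v2.0.9 in their methods, TopHat2 2.0.6 in the submitters' processing notes, which also name CASAVA 1.8 and list mm10 beside GRCh38, whereas the gene identifiers are human) and deposited a table of estimated counts by gene without normalization. All values were whole numbers, so rounding changed none, and 0 columns were left unmapped. In every sample more genes had exactly 4 counts than 3 or 5, with 1355 against 761 and 993 in shCtrl replicate 1. The counting program, annotation release and strand use are not given in the sources used here.

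After filterByExpr, TMM factors were computed and groups compared by edgeR 4.0.16 in R 4.3.3. SE is the size of the log2 fold change over the root of F. Positions and exon lengths come from GENCODE v44. The test was also tried on simulated counts with known changes in 200 genes, but the outcome is not given here and no result rests on it. Floors of 3 counts cover counting error only.

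The 10 genes, 7 pathway lists and 4 marker lists were chosen with earlier results of these data known. Named genes are the 10, AC007128.1, up to 3 others per pathway list with the smallest p among those past the test, and the 3 genes most like IL6 by Pearson's r of log2 CPM, among genes whose log2 CPM averaged 1 or more. All other genes given, among them partners that share exons and single genes of the pathway and marker lists, were named after their values were seen. Alternatives were DESeq2 1.42.0, limma-voom (limma 3.58.1), RLE factors, library size only, other filters, a replicate block, each sample left out, counts divided by 4, counts thinned to the smallest library and no limit on fold change.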

Additional observations from a re-analysis of the deposited data

How the results depend on the processing

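With no limit on fold change, 3820 genes were lower and 4041 higher in the whole table, the genes of the 10 that were higher became 2 (SOCS3 and STAT3), and the other pathway genes became 14 lower and 17 higher. In all other alternatives the calls among the 10 genes were IL6, IL24 and IL20RB lower and SOCS3 higher. Leaving out each sample in turn gave 1586 to 2023 genes called lower and 970 to 1068 called higher, 8 other pathway genes called lower and 5 to 6 called higher. The log2 fold change of OSMR then ran from -0.14 to 0.0238, changing sign at 0.01 without shAC007128.1 replicate 1 and at 0.0238 without replicate 2, and that of IL10RB from -0.16 to 0.65. The cause was not tested.

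Over the log2 fold changes of the 9 genes, 129 of 135 alternative values kept their direction and their side of the threshold, 4 passed it newly (LIF, IL6ST and OSMR) and 2 reversed (OSMR). Of 373 values of the other named genes that were followed 349 kept both, 23 no longer passed (CTF1, IL11RA, STAT5B and STAT4) and 1 reversed (IL10RB).

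The replicate numbers did not pair the samples, with r of 0.0306, -0.0254 and -0.0299 between samples of the same number after group means were taken away. With the replicate block 1692 genes were called lower and 977 higher. Of the named genes followed through the alternatives, CTF1, IL11RA, STAT5B and STAT4 no longer passed the test with it. Other named genes, among them the markers, the partners that share exons, SOCS2, SOCS6 and PTPN1, were not followed in this way. Unfiltered counts and DESeq2 moved the median log2 fold change of all genes to -0.15 and -0.13, over 34756 genes. At these depths IL20RA and OSM had too few counts to be tested.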
